A study of Drosophila melanogaster with 2 samples.

Results

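Distal peaks inside exons are the sites of CG15336-eGFP occupancy whose summit, the base of highest signal in a peak, lay in an annotated exon and more than 500 bp from every transcript start. Of the 9295 peaks in the conservative list on the main chromosome arms, 278 met this rule, which is 4.58% of the 6075 distal peaks (Wilson 95% interval 4.08 to 5.13). The other distal peaks lay in introns (4358) or between genes (1439), and 3220 peaks lay within 500 bp of a start. Peaks came from chromatin immunoprecipitation and sequencing (ChIP-seq) of Drosophila melanogaster prepupae aged 2 days, taken as whole animals of the strain labelled CG15336-GFP, whose CG15336-eGFP fusion protein was pulled down through its GFP part. The series has 1 group of 2 biological replicates and no second genotype, treatment or stage, so values are compared between replicates and between classes of sites, without a test. Driver, tissue of expression, sex and number of animals per library are not given in the labels, and the chromatin is of the whole animal, so the cells that carry a site cannot be told apart.

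Exons are the parts of a gene that stay in the finished RNA. In a messenger RNA they comprise the coding sequence, which is read in codons, and the untranslated regions (UTRs) before and after it, while exons of long noncoding RNAs (lncRNAs) have no reading frame. DNA-binding proteins are commonly found at promoters and at enhancers in introns and intergenic DNA, and a base that is exonic in one transcript may be intronic in another. The annotation was Ensembl release 115 on Release 6 of the genome (dm6), without transposable elements. Every annotated transcript start counted, those of microRNA genes and of features inside them included.

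Among the exon classes of the conservative list, noncoding and coding exons stood at opposite ends in density, signal and GC content. The reference sequence at their summits is therefore shown first. The 4 highest noncoding summits lay at chrX:12751333-12751361 (lncRNA:Vinr), chr3R:17704385-17704413 (lncRNA:CR46035), chrX:12754501-12754529 (lncRNA:CR44619) and chr3L:636633-636661 (lncRNA:CR43334). Coding summits shown are those at chr3L:20471122-20471150 (CG32428), chrX:1041614-1041642 (su(w[a])), chr3R:14819877-14819905 (btsz), chr3L:282526-282554 (RhoGEF3) and chrX:16423333-16423361 (hang). Each is 29 bases of the RefSeq genome sequence of dm6, plus strand, 5′ to 3′, centred on the summit, and capitals mark GAGAG read on either strand.
lncRNA:Vinr: caatcccttacatgtttctgttaaaaatt
lncRNA:CR46035: ttcattaaattattgtttctgatcaagtc
lncRNA:CR44619: attgttttaagctaactataccataaaac
lncRNA:CR43334: tgtggtgtagatcgtcttaggcattctta
CG32428: tttgtgtggcaggcaaggaaaagaaatct
su(w[a]): agaagaccgagcttgtcgctatttatagc
btsz: ttttatcataaacattacacaatctaccc
RhoGEF3: caacaaatgttgcttgcgcaCTCTCaaca
hang: agcagccgtcgcaacaacaacagcatcgg
GC content of these 29 bases was 27.6% at lncRNA:Vinr, 24.1% at lncRNA:CR46035 and at lncRNA:CR44619, and 41.4% at lncRNA:CR43334. In coding exons it was 27.6% at btsz, 41.4% at CG32428, 44.8% at su(w[a]) and at RhoGEF3, and 58.6% at hang. SCAP is also among the 6 highest coding sites and is not printed. In windows of 101 bases its summit had 64.4% GC, the highest of the 6, against 35.6% to 59.4% at the other 5.

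By class, 85 of the 278 summits lay in noncoding exons (30.6%), 82 in 3′ UTRs (29.5%), 80 in 5′ UTRs (28.8%) and 31 in coding sequence (11.2%). A summit in more than 1 class was placed in the order 5′ UTR, 3′ UTR, coding, noncoding. These 4 classes take up very different lengths of distal sequence, meaning sequence over 500 bp from a start: coding sequence made up 15.2% of it, 3′ UTRs 5.85%, noncoding exons 0.922% and 5′ UTRs 0.901%. Per Mb of distal sequence, noncoding exons held 79.7 summits and 5′ UTRs 76.7, against 82.5 in introns and 39.5 in intergenic sequence. In 3′ UTRs the density was 12.1 summits per Mb, and in coding sequence it was 1.77. Exonic sequence as a whole is 22.8% of distal sequence and held 4.58% of distal summits.

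In both replicate lists coding sequence had the lowest density, 0.342 summits per Mb in replicate 1 and 1.77 in replicate 2, and 3′ UTRs the next, 7.97 and 10.3. Noncoding exons held 62 summits in the replicate 1 list and 68 in the replicate 2 list, and 3′ UTRs held 54 and 70. Coding sequence held 6 in replicate 1 and 31 in replicate 2, and 5′ UTRs held 43 and 73. In the replicate lists the share of distal summits inside exons was 3.68% (165 of 4483) in replicate 1 and 4.77% (242 of 5077) in replicate 2, or 4.22% ± 0.768 (SD, n = 2). The 5′ UTR density was below that of introns in replicate 1, at 41.2 against 61.2 per Mb, and near it in replicate 2, at 70.0 against 68.7 per Mb. Noncoding exons held 58.1 per Mb in replicate 1, above 5′ UTRs, and 63.7 in replicate 2, below them.

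**Figure D1:**
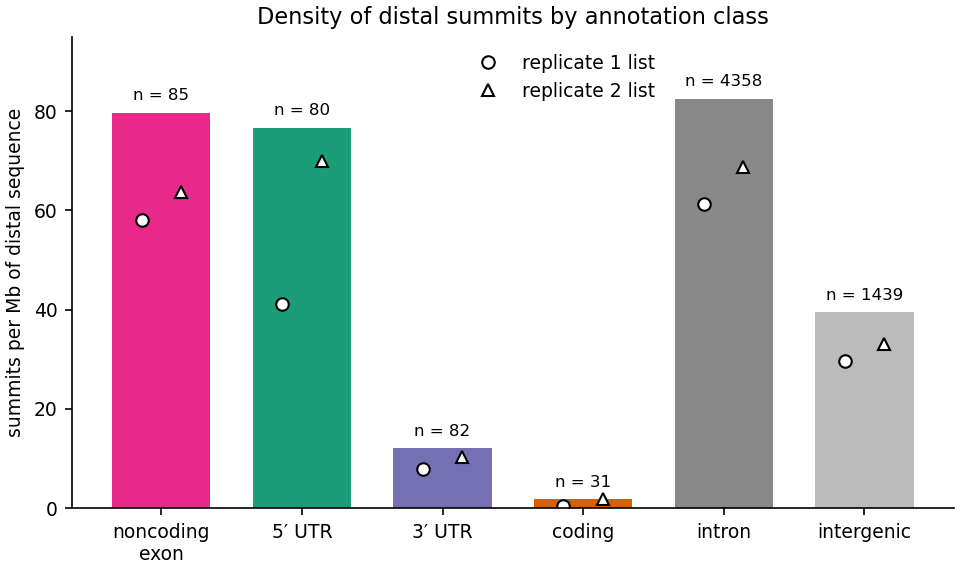
Summits per Mb of sequence more than 500 bp from a transcript start, by annotation class; bars give the conservative list with its number of peaks, circles the replicate 1 list and triangles the replicate 2 list. Noncoding exons (79.7) and 5′ UTRs (76.7) stand near introns (82.5), 3′ UTRs (12.1) and coding sequence (1.77) far lower.

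Density was also read by distance to a start, since the summits per Mb differed with distance in most classes. Between 501 and 1000 bp from a start, 5′ UTRs held 127.9 summits per Mb and noncoding exons 87.1, against 150 in introns and 77.9 in intergenic sequence. From 2001 to 5000 bp, noncoding exons held 81.6 per Mb (17 summits) and 5′ UTRs 20.5 (4 summits), against 91.1 in introns and 51.7 in intergenic sequence. Beyond 5000 bp the densities were 44.1 in noncoding exons (5 summits) and 36.8 in 5′ UTRs (6 summits), against 59.0 in introns and 21.0 in intergenic sequence. In the replicate 1 list noncoding exons held 69.2 per Mb at 501 to 1000 bp and 48.0 at 2001 to 5000 bp, and in the replicate 2 list 78.2 and 43.2. Coding sequence held between 0.792 and 3.09 per Mb in the 4 distance ranges. The share of distal peaks inside exons was 12.5% at 501 to 1000 bp, where 46.2% of the sequence is exonic, and 1.09% beyond 5000 bp, where 9.39% is.

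The median distance from these summits to the nearest start was 1153 bp, against 3256 bp for other distal peaks. It was 749 bp in 5′ UTRs, 1218 bp in noncoding exons, 1521 bp in coding sequence and 1605.5 bp in 3′ UTRs. Tlk, which encodes a protein kinase, was nearest, at 501 bp, with a signal of 8.85. It was matched to 136 in replicate 1 and 146 in replicate 2. The peak is in the subset described below, whose replicate values may belong to a neighbouring peak. CG15247 followed at 509 bp with a signal of 180. Just under the bound were the exonic summit shared by CG4456 and Hsp22, a small heat shock protein gene, at 497 bp with a signal of 345, and lncRNA:CR44363 at 496 bp with a signal of 443. At the far end stood lncRNA:CR45224, with a summit 14497 bp from any start and a signal of 69.8. This summit lay inside SKIP, 1 bp from the edge of the lncRNA exon, and 50.3% of the peak was exonic. It was intronic in another transcript and overlapped no thresholded peak of either replicate.

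Signal is the authors' value for a peak, in units they do not name, and was compared within a list only. Distal exonic peaks had a median signal of 100.5 (quartiles 75.0 and 175), against 125.6 for intronic and 122.7 for intergenic distal peaks. By class the median was 127.5 in noncoding exons, 101.7 in 3′ UTRs, 93.8 in 5′ UTRs and 77.5 in coding sequence. The ratio of the exonic median to that of other distal peaks was 0.805, and within the replicate lists it was 0.910 in replicate 1 and 0.842 in replicate 2. Among peaks with a global irreproducible discovery rate (IDR) of 0.001 or less, of which 126 were exonic, the ratio was 1.03. With the distal peaks ranked by signal and split into 4 sets of equal size, the share inside exons was 3.88% in the highest set, 2.897% in the second, 4.87% in the third and 6.65% in the lowest. No coding summit reached the highest set, and 20 of the 31 were in the lowest.

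**Figure D2:**
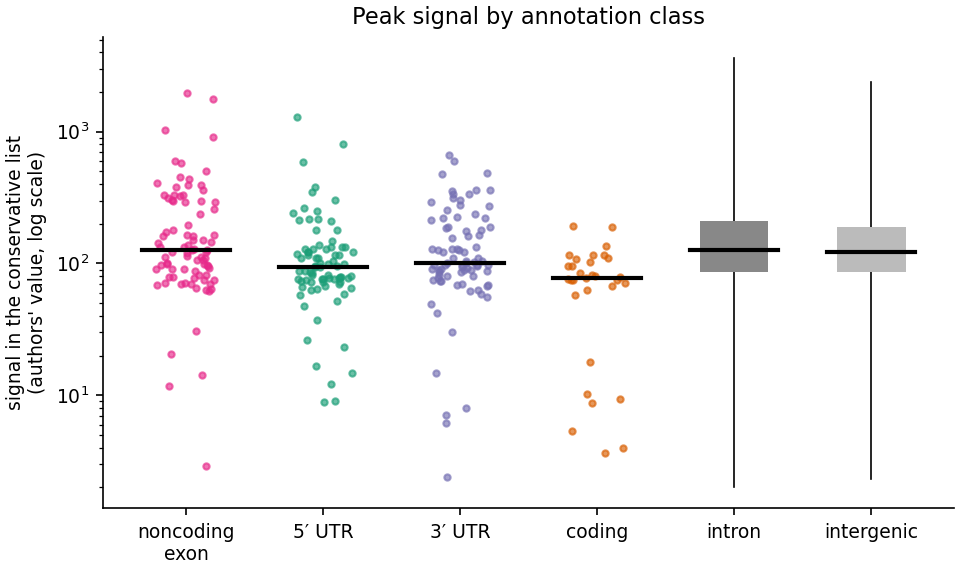
Signal of each distal exonic peak in the conservative list, by exon class, on a log axis; black bars are medians, and for introns and intergenic sequence the box spans the quartiles and the line the full range. Noncoding exons reach 1979 with a median of 127.5, while coding sequence ends at 193 with a median of 77.5.

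Reproducibility followed the same order of classes. Of the 278 peaks, 156 (56.1%) overlapped a thresholded peak of replicate 1 by at least 1 bp, against 67.3% of all conservative peaks. For replicate 2 the count was 207 (74.5%), against 76.4% of all conservative peaks. A thresholded peak of each replicate was overlapped by 138 (49.6%, Wilson 95% interval 43.8 to 55.5), against 58.8% of all conservative peaks and 60.6% of other distal peaks. Only replicate 2 was overlapped by 69, only replicate 1 by 18, and neither by 53. Among all 9295 conservative peaks these counts were 1634, 790 and 1406, so the whole list also leaned to replicate 2. Overlap with each replicate was found for 54 of 85 peaks in noncoding exons (63.5%), 42 of 82 in 3′ UTRs (51.2%), 35 of 80 in 5′ UTRs (43.8%) and 7 of 31 in coding sequence (22.6%, interval 11.4 to 39.8). An IDR of 0.001 or less was reached by 126 of the 278 (45.3%), among them 3 coding sites, against 58.6% of other distal peaks.

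Each peak was also matched to the nearest overlapping peak in each replicate's ranked list, which holds peaks below the threshold too. This gave a signal in both replicates for 272 of the 278. The Spearman correlation between the replicate signals, given as a description over peaks of the same pair of libraries, was 0.865 in noncoding exons (n = 85), 0.804 in 3′ UTRs (n = 80), 0.695 in 5′ UTRs (n = 78) and 0.0808 in coding sequence (n = 29). Other distal peaks had a correlation of 0.796 (n = 5756). Coding peaks also spanned the narrowest range of signal.

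**Figure D3:**
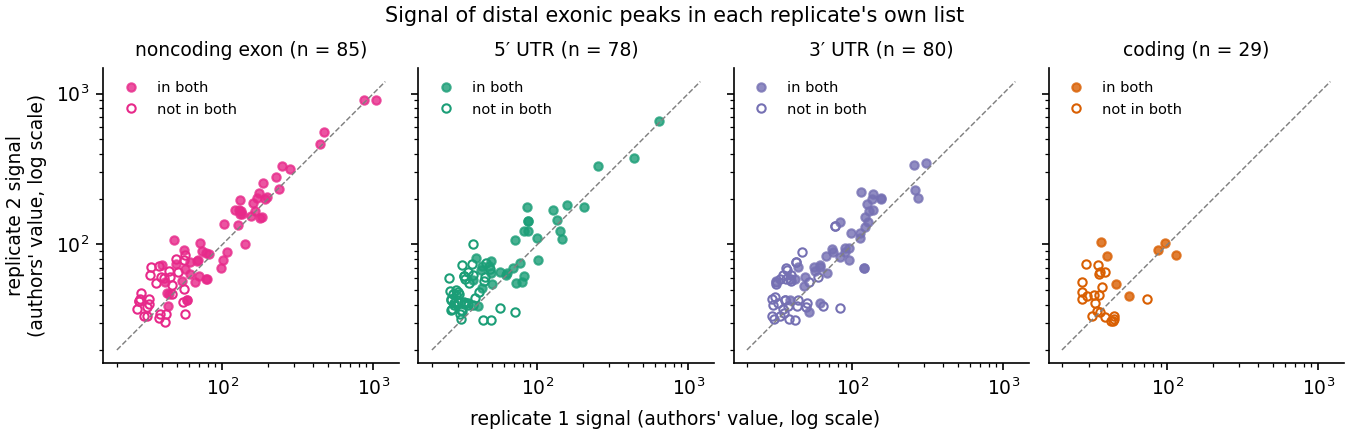
Replicate 2 against replicate 1 signal for distal exonic peaks of each class, on log axes; filled points overlap a thresholded peak of each replicate, open points do not, and the dashed line marks equal values. Noncoding exons run along the line up to 1037 in replicate 1 (Spearman correlation 0.865), and coding peaks form a cloud at low signal (Spearman correlation 0.0808).

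A subset had a conservative-list signal below that of both replicates. It comprised 25 of the 278 (8.99%), against 5.69% of all conservative peaks, and 7 of the 31 coding peaks. All 25 overlapped another conservative peak, as 41 of the 278 did. Such overlap is not given here for all conservative peaks, so it cannot be read as a trait of exonic sites. CG1888 shows the pattern: summits with signals of 212 and 8.03 matched the same replicate values, 76.2 in replicate 1 and 132 in replicate 2. The lowest signal of all, 2.40, in the single exon of CG11226, was matched to 38.8 in replicate 1 and 59.1 in replicate 2. For such sites the replicate values may belong to the neighbouring peak.

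Exons of long noncoding RNAs carried the highest sites. In lncRNA:Vinr the signal was 1979, rank 9 of the conservative list, at chrX:12751184-12751617, with 1037 in replicate 1 and 909 in replicate 2. This summit lay 520 bp upstream of a start of lncRNA:CR44619, close to the 500 bp bound. A second summit in the single exon of lncRNA:Vinr had 162, with 77.6 and 87.2 in replicates 1 and 2. The overlapping gene lncRNA:CR44619 had 1026 in its last exon, with 473 in replicate 1 and 560 in replicate 2, and a second summit with 142, with 56.1 and 91.6. All 4 summits of this pair of genes passed the threshold in each replicate.

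Some noncoding exons are nested inside a larger gene. Of the 85, 28 lay within the span of a protein-coding gene and 32 (37.6%) were intronic in another transcript, against 31.4% of distal noncoding exon sequence that is. The highest of them, in lncRNA:CR46035 inside osa, which encodes a subunit of the Brahma chromatin remodelling complex, had a signal of 1766, with 863 in replicate 1 and 908 in replicate 2. Chosen after its values were seen, lncRNA:CR45921 lies inside Eip75B, an ecdysone-induced nuclear receptor gene, with a signal of 326, 177 in replicate 1 and 150 in replicate 2. Its summit was on the last base of the lncRNA exon, 520 bp from its start, and 49.8% of the peak was exonic. Also chosen after its values were seen, lncRNA:CR44331 lies inside puc, a phosphatase gene of the JNK pathway, with 331, 182 in replicate 1 and 151 in replicate 2.

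Precursors of microRNAs, short RNAs that repress messenger RNAs, were among the noncoding hosts. RefSeq synonyms name a primary microRNA transcript for 4 hosts. The gene with most distal exonic peaks in these data was lncRNA:CR43334 (synonym pri-bantam), the precursor of bantam, a microRNA known to promote growth and to repress cell death. It spans chr3L:628435-643900 as a single exon, with mir-ban from 13773 to 13853 bp after its first annotated start. Of its 10 conservative peaks, 7 lay over 500 bp from any start. The 5 of these that passed the threshold in each replicate lay 5314 to 12318 bp from the first start. Another annotated start of the gene lay 3067 bp downstream of the highest summit and 1039 bp upstream of the summit at 12318 bp. Highest was the summit at 8212 bp, with 910, and 443 in replicate 1 and 460 in replicate 2. At 6429 bp the signal was 456, with 238 and 234 in replicates 1 and 2. At 5314 bp it was 361, with 160 in replicate 1 and 188 in replicate 2. These 3 sites stood in the same order in both libraries. The sites at 12318 bp (299, with 131 and 160) and 8994 bp (151, with 68.1 and 77.3) were lower, and those at 1460 bp (65.7) and 14396 bp (20.5) did not pass in each replicate. The last of these lay 200 bp from a stronger peak of 142 that was within 500 bp of a start. That start, the nearest to both peaks, is of an annotated feature inside mir-ban and not of the lncRNA.

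**Figure D4:**
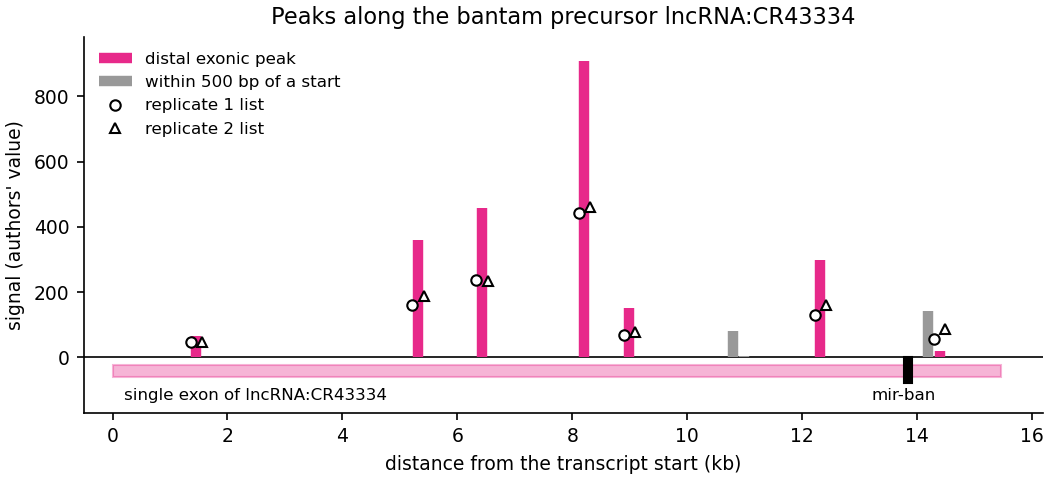
Conservative peaks along the bantam precursor lncRNA:CR43334 by distance from its first annotated start. Coloured bars are distal exonic peaks and grey bars are peaks within 500 bp of any annotated start, including the start inside mir-ban. Circles and triangles are replicate 1 and replicate 2 signals, and the black mark is mir-ban. The 3 highest bars stand at 5314, 6429 and 8212 bp, upstream of the microRNA.

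lncRNA:CR43650 (pri-mir-8), precursor of a microRNA of the miR-200 family, held a pair of peaks that passed in each replicate. They had signals of 504, with 225 in replicate 1 and 279 in replicate 2, and 408, with 197 and 206. lncRNA:CR43459 (pri-mir-277_mir-34) had 69.8, with 31.5 and 38.4, and lncRNA:CR43314 (pri-mir-263a) had 63.4, with 31.8 and 33.6, and neither passed in either replicate. lncRNA:CR46004, a gene with 4 peaks, had its highest at 331, with 130 in replicate 1 and 196 in replicate 2, and the next at 330, with 165 and 167.

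5′ UTR sites were led by baz, which encodes the polarity scaffold Bazooka (Par-3). Its summit had a signal of 1291, with 638 in replicate 1 and 661 in replicate 2, inside the second of 9 exons and 4546 bp from the nearest start. A second 5′ UTR summit of baz had 209, with 99.8 in replicate 1 and 110 in replicate 2. firl had 805, with 437 in replicate 1 and 375 in replicate 2. Fbl6, an F-box protein gene, had 587, with 254 and 332. cic, which encodes the repressor Capicua, had 380, with 204 and 178. Nup153, a nuclear pore gene, had 349, with 157 and 184, and eas, an ethanolamine kinase gene, had 301, with 127 and 168. These 6 highest hosts passed the threshold in each replicate, and in 5 of them, Nup153 being the exception, the highest summit was intronic in another transcript.

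Alternative transcripts were common in this class. Of the 80 summits in 5′ UTRs, 43 (53.8%, Wilson 95% interval 42.9 to 64.3) were intronic in another transcript, against 38.7% of distal 5′ UTR sequence. The share was 23.2% in 3′ UTRs (19 of 82) against 17.0% of their sequence, and 12.9% in coding sequence (4 of 31) against 12.8% of its sequence. Over all classes 98 of 278 (35.3%) were, and 59 were so in a transcript of the host gene itself. Overlap with a thresholded peak of each replicate was found for 57 of these 98 and for 81 of the 180 others.

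3′ UTR sites gathered towards transcript ends, as 3′ UTR sequence does. Of the 82 summits, 66 lay within 500 bp of an annotated transcript end, at a median of 181 bp, and 63.6% of distal 3′ UTR sequence lies within that distance. The highest was in Ance-3, an angiotensin-converting enzyme family gene, with 669, 307 in replicate 1 and 349 in replicate 2. Cals, the calsyntenin gene on chromosome 4, had 604, with 257 in replicate 1 and 334 in replicate 2, and this summit also lay in an exon of sv. stas had 487, with 260 and 231, CG33307 had 479, with 274 and 204, CG7872 had 362, with 155 and 202, and dsb had 360, with 156 and 205. All 6 passed the threshold in each replicate. Lsd-2, which encodes a lipid droplet perilipin, held 3 peaks in its 3′ UTR, of which the one of 304, with 136 in replicate 1 and 170 in replicate 2, passed in each.

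Coding sites were few and weak. CG32428 had the highest, with 193, 113 in replicate 1 and 85.2 in replicate 2, and its summit lay 12 bp from the edge of the exon. su(w[a]), an RNA processing regulator, had 189, with 86.6 in replicate 1 and 92.5 in replicate 2. btsz, a synaptotagmin-like protein gene, had 135, with 36.0 in replicate 1 and 104 in replicate 2. RhoGEF3, a guanine nucleotide exchange factor gene, had 116, with 34.8 and 73.4, and hang, a zinc finger protein gene, had 116, with 40.0 and 84.5. SCAP, which escorts the lipid regulator SREBP, had 116, with no matched peak in replicate 1 and 77.8 in replicate 2. RhoGEF3 and SCAP passed the threshold in replicate 2 only, and the other 4 in each replicate. Of all 31 coding summits, 7 lay within 25 bp of an exon edge. The counts were 9 of 85 in noncoding exons, 8 of 82 in 3′ UTRs and 3 of 80 in 5′ UTRs. The share of distal sequence that close to an edge is not given here. The median share of the peak interval that was exonic was 81.0% at coding sites, against 100% in each other exon class.

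GC content separated coding sites from the rest. At the summits, in windows of 101 bases, the mean was 55.9% in coding sequence, 38.5% in 5′ UTRs, 35.1% in 3′ UTRs and 33.1% in noncoding exons, against 32.6% in introns and 31.4% in intergenic sequence. Relative to flanks centred 300 bp away, GC fell at noncoding summits by 13.2 percentage points (SD 11.99 over peaks), at 3′ UTR summits by 6.67 and at 5′ UTR summits by 3.24. It fell by 11.8 points at intronic and by 14.8 at intergenic summits. At coding summits GC was 12.2 points above the flanks (SD 10.6 over peaks), and 29 of 31 were above. Many of those flanks left the exon: for the 5 coding summits with wholly exonic flanks the difference was 0.693 points (SD 9.72), and all distal coding sequence has a GC content of 53.3%. Where flanks were wholly exonic, GC fell by 12.4 points at 57 noncoding summits, and it fell by 8.64 points at 33 summits in 5′ UTRs.

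**Figure D5:**
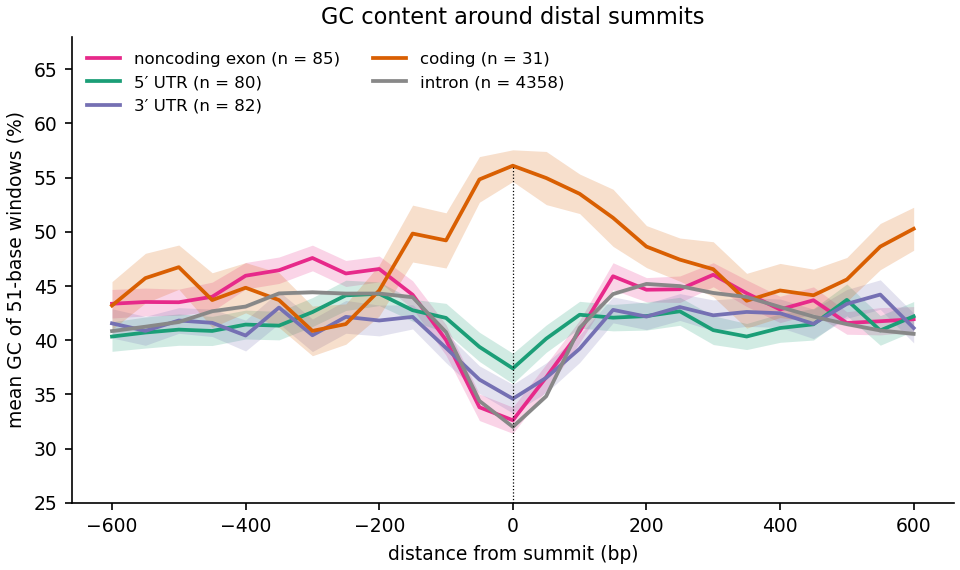
Mean GC of 51-base windows by distance from the summit, with shaded standard errors over peaks, for the exon classes and for distal intronic peaks. Noncoding exons, 3′ UTRs and 5′ UTRs dip at the summit as introns do, and the coding profile peaks there.

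In the replicate lists the mean GC difference over all exonic sites was -10.01 points in replicate 1 and -3.96 in replicate 2, or -6.98 ± 4.28 (SD, n = 2). Noncoding exons had -16.4 and -11.8 points in replicates 1 and 2, 3′ UTRs -8.50 and -4.46, 5′ UTRs -4.64 and -0.671, and coding sequence 4.29 and 6.66. Introns had -13.8 points in replicate 1 and -11.5 in replicate 2. Summits of replicate 2 were richer in GC in each of these classes, and how the libraries differ in GC recovery was not tested.

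Of 10 short motifs searched on both strands within 50 bp of each summit, GAGAG is a core of the sites bound by GA-binding factors in flies. It was present at 52 of 278 exonic summits (18.7%, Wilson 95% interval 14.6 to 23.7), against 12.5% of all conservative peaks. GAGAG was at 16.3% of peaks within 500 bp of a start, inside that interval, and at 10.6% of intronic and 8.41% of intergenic distal peaks. 5′ UTR summits held it most often, at 25 of 80 (31.2%, interval 22.2 to 42.1), where 14.4% of windows on distal 5′ UTR sequence hold it. The count was 6 of 31 in coding sequence (19.4%), 12 of 85 in noncoding exons (14.1%) and 9 of 82 in 3′ UTRs (11.0%), where windows on the same kind of sequence gave 12.3%, 11.3% and 10.2%. In the 5′ UTR summits of the replicate lists it was found at 9 of 43 in replicate 1 (20.9%) and 24 of 73 in replicate 2 (32.9%). Over all exonic summits the share was 15.2% in the replicate 1 list and 24.4% in the replicate 2 list. At an IDR of 0.001 or less it was 14.3%, against 9.68% of all conservative peaks at that IDR. The repeat CACACACA, also on both strands, was at 11 of 80 5′ UTR summits (13.8%), against 3.47% of 5′ UTR sequence windows, 1.86% of intronic peaks and 2.30% of all peaks. Replicate 1 had it at 3 of 43 and replicate 2 at 11 of 73.

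Of the other motifs, AAAAAAAA was at 16 of 80 5′ UTR summits, against 5.39% of 5′ UTR sequence windows and 14.04% of intronic peaks, and at 32 of the 278 (11.5%), against 12.6% of all conservative peaks. GAGAGAGA, which contains GAGAG, was at 10 of the 278 (3.60%), against 1.56% of all conservative peaks. TGCATA was at 23 of the 278 (8.27%), against 7.94%. It was at 13 of 85 noncoding summits (15.3%). The other classes had it at 5 of 82 summits in 3′ UTRs, 3 of 80 in 5′ UTRs and 2 of 31 in coding sequence. No sequence background was made for it. ACAGTG was at 19 (6.83%), against 5.27%, and CAGTGC, which shares 5 bases with it, was at 17 (6.12%), against 5.38%. CAGGTAG was at 1 summit, and TATCGATA and CACGTG were at 0 of 278, which allows a share of up to 1.36% (Wilson 95% interval), against 0.290% and 0.581% of all conservative peaks.

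On the X chromosome lay 72 of the 278 (25.9%, Wilson 95% interval 21.1 to 31.4), against 19.6% of all conservative peaks, 23.6% of intronic and 10.01% of intergenic distal peaks. The X share was 30.0% in 5′ UTRs and 29.3% in 3′ UTRs, against 21.9% and 22.8% of their distal sequence. It was 21.2% in noncoding exons, against 15.0% of their sequence, and 19.4% in coding sequence, against 17.8%. In the replicate lists it was 29.7% in replicate 1 and 24.8% in replicate 2.

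The 278 peaks lay in 242 host genes, of which 177 are protein-coding (1.27% of 13945) and 65 are noncoding (1.99% of 3261), against 1.33% of all 18164 genes. A gene was host to more than 1 peak in 26 cases, which took in 62 peaks. wts, the Hippo pathway kinase gene, chosen after its values were seen, was among them, with 128.4 in its 3′ UTR (61.2 in replicate 1, 72.9 in replicate 2) and 127.8 in its 5′ UTR (56.4 and 65.7). SCAP and SREBP, which act together in lipid regulation and were noticed after the values were seen, were both hosts. SREBP had a 5′ UTR signal of 251, with 146 in replicate 1 and 108 in replicate 2.

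Of 30 genes of the response to ecdysone, the steroid that drives metamorphosis, 3 were hosts, against 1.33% of all genes, with gene length not taken into account. Hr3, a nuclear receptor gene, had a 3′ UTR signal of 134, with 68.3 in replicate 1 and 65.2 in replicate 2. ftz-f1, the prepupal nuclear receptor gene, had a 5′ UTR signal of 122, with 62.1 in replicate 1 and 63.0 in replicate 2. EcR, the ecdysone receptor gene, had a 5′ UTR signal of 116, with 37.1 in replicate 1 and 73.9 in replicate 2, and did not pass in each replicate. Lists with 1 host were the Polycomb and trithorax group (Psc, 76.0, 1 of 27), appendage and body patterning (Ser, 5.40, 1 of 26) and neuron and muscle (Obsc, 63.4, 1 of 24). None of these 3 passed in each replicate. No host was found among 33 RNA-binding and splicing factors, 14 insulator and architectural genes or 9 pipsqueak-domain and GA-binding factors. A short list of 8 noncoding RNAs, with roX1, roX2 and Hsromega among them, held none either; 3 of its names matched no gene, and it leaves out the microRNA precursors described above. CG15336 itself held none, and the nearest distal exonic peak lay 5144 bp away in CG17982, with a signal of 77.5.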

How the data were processed

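Per the labels, sonicated fragments of 200 to 800 bp were used and the assembly is dm6. The sources used here do not give the aligner or peak caller, and no control was analysed here. The authors deposited, for each replicate and for both together, ranked and thresholded peak lists. Their signal is the authors' value per peak, in units they do not name. A deposited -log10 value per ranked peak is its global irreproducible discovery rate (IDR), and each conservative peak had at least 2.00. Read depth is unknown, so Wilson 95% intervals cover counting error over peaks only.

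Summits were classed on Ensembl release 115, tested against bedtools 2.31.1 on 3000 simulated summits (3000 agreed). The members and gene lists were chosen with earlier results of these data known. Genes named were drawn from hosts of the 6 highest signals per class and up to 6 genes with most peaks. The nearest, farthest and lowest site, those just inside and outside the distance bound, listed genes and CG15336 were also named. Several others are said to have been chosen after their values were seen, or named for a primary microRNA synonym. By the same rules lncRNA:CR44632 (signal 601), lncRNA:CR44468 (579) and lncRNA:CR46214 (3 peaks, highest 121) qualified but are not described above. Motif backgrounds are 101-base windows on every 10th distal base. Results were recomputed with less or more strict lists, single replicates, and changed distances, windows, overlaps and exon definitions. Software was Python 3.11.15 with pandas 2.3.3, numpy 2.4.6, matplotlib 3.10.9 and scipy 1.17.1.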

Additional observations from a re-analysis of the deposited data

How the results depend on the processing

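No paired analysis was possible because the series has 1 group. Of 90 recomputed values over 13 results, 55 moved by less than the spread between the replicate lists (SD, n = 2), the counting interval or, for the count, 1.5 times, 34 moved further and 1 turned its direction: the signal ratio of exonic to other distal peaks, 0.805, was 1.03 at a global IDR of 0.001 or less. Leaving a replicate out gives the same lists that set the spread between replicates, so those values are not an independent check.

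At a global IDR of 0.001 or less, 126 peaks remained (3.58% of distal peaks). Among them 90.5% overlapped a peak of each replicate, GAGAG was at 14.3%, the GC difference was -10.4 points and the median distance was 1356 bp. Noncoding exons then took 41.3%, 3′ UTRs 32.5%, 5′ UTRs 23.8% and coding sequence 2.38%. Over 250 bp from a start there were 452 exonic peaks (6.51%, median distance 637.5 bp). Over 1000 bp there were 152 (2.999%, median 2091 bp), with 29.6% also intronic and a signal ratio of 0.868. Counting exons of protein-coding genes only gave 3.18% of distal peaks. The median distance was 1223 bp in the less strict list and 1134 bp by interval midpoint. The share overlapping each replicate was 42.8% when the overlap had to cover at least 50% of the peak and 97.8% against the ranked lists. With the motif window widened to 100 bp on both sides, GAGAG was found at 35.6% of exonic summits, against 25.6% of all conservative peaks.

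With replicate 1 or replicate 2 left out, the count was 165 to 242 and the share 3.68 to 4.77%. The share also intronic was 36.4 to 42.4%, the signal ratio 0.842 to 0.910, the GC difference -10.01 to -3.96 points, the median distance 1177 to 1202 bp the X share 24.8 to 29.7% and the GAGAG share 15.2 to 24.4%. Class shares were 28.9 to 32.7% for 3′ UTRs, 3.64 to 12.8% for coding sequence and 28.1 to 37.6% for noncoding exons. The higher coding share was that of the replicate 2 list. Of the 31 coding peaks in the conservative list, 7 overlapped each replicate, 10 replicate 2 only, 3 replicate 1 only and 11 neither. The causes were not tested. Peak lists give no read depth, no input and no sites below the callers' limits, so a site missing from a replicate list is not shown to be unoccupied.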
